A study of Mus musculus with 9 samples.

Results

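Chodl, Mmp9, Spp1 and Prkcd are 4 of the 21457 features in the count matrix of mouse spinal cord cholinergic nuclei. They were listed by name as genes used to tell fast, slow and other alpha motor neurons apart. The rule uses no measured value, but the choice was made with earlier results of these data known. The nuclei came from 12 mice aged 8 weeks that carried 1 copy each of Chat-IRES-Cre and of the Sun1-sfGFP reporter, so that cells with a history of Chat-driven Cre had a GFP-tagged nuclear envelope and could be sorted. All groups shared this genotype, and no treatment was given. The mice formed 3 pools of 4 (replicate 1 with 2 males and 2 females, replicate 2 with males and replicate 3 with females), and every pool was cut into cervical, thoracic and lumbar/sacral cord, which gave 9 libraries, 1 for each region and pool. The 4 genes are described in cluster S2, the alpha motor neurons of the authors' annotation, with S1 (Type 3 skeletal motor neurons), S3 (gamma motor neurons), visceral motor neurons (V clusters) and cholinergic interneurons (I clusters) as background. S2 held 1285 of 16042 cholinergic nuclei (8.01%), with 26 to 395 nuclei in a library.

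Alpha motor neurons drive the force-producing extrafusal fibers of skeletal muscle, gamma motor neurons innervate the fibers inside muscle spindles, and alpha motor neurons are further divided by the contraction speed and fatigability of their motor unit. Chodl encodes chondrolectin, a C-type lectin membrane protein that is used as a marker of fast motor neurons. Mmp9 encodes a secreted matrix metalloproteinase known from fast-fatigable motor neurons. Spp1 encodes osteopontin, a secreted glycoprotein that binds integrins and Cd44 and is used as a marker of alpha motor neurons. Prkcd encodes protein kinase C delta, a member of the calcium-independent subgroup of the protein kinase C (PKC) family.

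In GRCm38, all 4 genes are annotated as protein coding. Chodl spans chr16:78930948-78951733 on the plus strand, Mmp9 chr2:164940780-164955850 on the plus strand, Spp1 chr5:104435118-104441050 on the plus strand and Prkcd chr14:30595354-30626210 on the minus strand. Spp1 overlaps an unconfirmed transcript, Gm42793, on the same strand, which is not a row of the matrix, and reads from the overlap cannot be assigned between them. RefSeq promoter windows (GRCm38.p6, 250 bases before to 50 bases after the start, 5' to 3' on the gene's strand) matched 3 of the 4 genes, and no window was found for Mmp9. Spp1 and Prkcd each had a second RefSeq start (windows chr5:104435942-104436241 and chr14:30610261-30610560), and neither of these second windows held a searched motif. The first entries are shown and described. Those of Chodl and Prkcd are shown because these genes were mostly detected in different S2 nuclei, and that of Spp1 because it was detected in both kinds. Capitals mark matches to the motifs that were searched on both strands, namely the letters TATAAA of the TATA box, the letters GGGCGG of the GC box bound by Sp factors, and AAGGTCA, the core of the response element of estrogen-related receptors.
Chodl, chr16:78930698-78930997, plus strand: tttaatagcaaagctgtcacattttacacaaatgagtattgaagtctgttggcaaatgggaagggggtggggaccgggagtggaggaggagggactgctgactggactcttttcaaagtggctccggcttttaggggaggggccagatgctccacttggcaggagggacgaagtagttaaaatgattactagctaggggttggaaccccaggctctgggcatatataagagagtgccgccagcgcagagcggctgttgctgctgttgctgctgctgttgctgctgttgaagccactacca
Spp1, chr5:104434861-104435160, plus strand: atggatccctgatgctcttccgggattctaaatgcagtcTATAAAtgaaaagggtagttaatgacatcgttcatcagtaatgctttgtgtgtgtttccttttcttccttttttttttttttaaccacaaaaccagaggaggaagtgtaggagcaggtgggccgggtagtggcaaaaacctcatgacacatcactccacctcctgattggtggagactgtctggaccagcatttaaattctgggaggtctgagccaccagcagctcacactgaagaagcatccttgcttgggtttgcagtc
Prkcd, chr14:30626159-30626458, minus strand: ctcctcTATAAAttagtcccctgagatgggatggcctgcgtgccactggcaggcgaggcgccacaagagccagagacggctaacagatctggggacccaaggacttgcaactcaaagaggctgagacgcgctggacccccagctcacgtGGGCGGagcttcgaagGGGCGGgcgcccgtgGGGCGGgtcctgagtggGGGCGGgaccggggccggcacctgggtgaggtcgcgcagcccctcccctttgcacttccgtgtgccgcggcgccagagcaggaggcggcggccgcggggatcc
TATAAA occurred in the Spp1 window at base -211 and in the Prkcd window at base -244 from the start, and 13.6% of all 32851 promoter windows held it. GGGCGG occurred 4 times in the Prkcd window, at bases -101, -85, -70 and -53, and 35.7% of all windows held it. The Chodl window held none of these letters, and none of the windows held AAGGTCA (4.72% of all windows). Only these exact letters were searched, so near matches, such as tatataag in the Chodl window, were not counted. A match or its absence does not show whether a window has a TATA box that is used.

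Values are corrected counts, which the authors' normalization had already adjusted for the depth of each nucleus, and a gene is called detected in a nucleus with at least 1 corrected count. Levels are CPM, corrected counts scaled to a common total of 1000000, in the S2 sum of a library, which ranged from 227255 to 2886974 corrected counts. Some facts about the libraries bear on what follows. Corrected totals were nearly alike within a library but differed between libraries. The median total of S2 nuclei in replicates 1 to 3 was 7506, 14251 and 10489 in cervical libraries. It was 11496, 9718 and 8842.5 in thoracic and 4998, 7389.5 and 5936.5 in lumbar/sacral libraries. Shares of nuclei with at least 1 count are therefore not taken at equal totals. Shares after thinning to a common total are given for Prkcd and Spp1. The Hox genes of the male-pool cervical and thoracic libraries went against their labels: Hoxc5 stood at 73.3 CPM in the male cervical library (22.5 and 25.4 in the other cervical libraries) and at 13.9 CPM in the male thoracic library (84.2 and 85.3 in the others). Hoxa9, chosen after its values were seen, stood at 9.69 and 0.507 CPM in the same libraries, against 0.213 and 0.412 in the other cervical and 9.04 and 9.35 in the other thoracic libraries. These are called the libraries labelled cervical and thoracic replicate 2, their labels were kept, and the regional tests of the members' shares and levels are given with and without them. In addition, the S2 nuclei of the library labelled cervical replicate 2 were low in genes of skeletal and alpha motor neurons, with Tns1 at 80.5 CPM (311 to 450 elsewhere), Prph at 26.5 CPM (141 to 302) and Stk32a at 101 CPM (172 to 545), while Rbfox3 at 200.2 CPM lay within the range of the others (107 to 332), and the summed level of 3 visceral motor neuron markers was 257 CPM (0 to 53.9 elsewhere). Nuclear Malat1, a sign of RNA composition, took 2.34% to 3.26% of S2 counts in the mixed pool, 10.6% to 12.4% in the male pool and 3.06% to 9.0% in the female pool. Libraries shared 33 cell barcodes among all cholinergic nuclei and 2 in S2.

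Marker levels of S2 are given as a description. The alpha marker Stk32a stood at 352 ± 143 CPM (SD over 9 libraries) in S2 and at 14.3 and 10.1 CPM in S1 and S3. Sv2b stood at 310.1 ± 88.5 CPM against 14.9 and 7.98 CPM. The study chose these 2 genes, Gpr149 and Nrp2 from clusters of the same nuclei, so their levels do not check the label. Of markers known before, the alpha gene Rbfox3 stood at 229.0 ± 90.5 CPM in S2 against 35.8 and 64.3 CPM in S1 and S3. The gamma genes Esrrg and Gfra1 stood at 1004 and 488 CPM in S2, beside 1931 and 381 CPM in S1 and 2056 and 742 CPM in S3. The Type 3 marker Gpr149 (95.8 ± 60.8 CPM) and the gamma marker Nrp2 (37.6 ± 26.5 CPM) were present in S2 as well, below the 420 CPM of S1 and the 442 CPM of S3. All 4 genes were found in S2, but at very different rates. Prkcd was detected in 468 nuclei (36.4%), Chodl in 296 (23.0%), Spp1 in 208 (16.2%) and Mmp9 in 27 (2.10%). Chodl had the highest count in a single nucleus, 8, and at least 2 counts in 120 nuclei. Prkcd reached 6 counts and had at least 2 in 156 nuclei, Spp1 reached 3 and had at least 2 in 20 nuclei, and no nucleus held more than 1 count of Mmp9. None of the 4 genes was detected in 484 nuclei (37.7%), 1 of them in 618 (48.1%), 2 in 168 (13.1%) and 3 in 15 (1.17%).

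Prkcd was detected most often in the libraries labelled thoracic. Its share of S2 nuclei was 27.6%, 8.45% and 34.4% in cervical replicates 1 to 3, 54.3%, 59.5% and 65.4% in the thoracic replicates, and 40.9%, 55.2% and 35.5% in the lumbar/sacral replicates. The libraries labelled cervical lay below all the others, and thoracic and lumbar/sacral libraries overlapped. This order rests on the labels. With those of cervical and thoracic replicate 2 exchanged, 59.5% would be a cervical and 8.45% a thoracic value, and these 2 regions would overlap. No test was run with exchanged labels. The means were 23.5% ± 13.4, 59.7% ± 5.52 and 43.9% ± 10.2 (SD, n = 3 libraries each), and the shares differed between regions beyond the spread of the libraries (two-sided exact permutation test over 1680 assignments, p = 0.00714). With the replicate number as a block the exact permutation p was 0.0278, the smallest possible. The share tests of the members were not adjusted for their number. The p was 0.0667 without the libraries labelled cervical and thoracic replicate 2 and 0.0286 without the former alone. With every nucleus thinned to 4600 counts the exact permutation p was 0.0321, but the order of the means changed to 12.6%, 38.2% and 40.4%, so thoracic and lumbar/sacral S2 could not be ranked. The summed level of the Type 3 markers Gpr149 and Rreb1, genes of the S1 cluster, was also lower in the libraries labelled cervical than in those labelled thoracic. It was 108, 163 and 111 CPM in the cervical, 212, 184 and 273 in the thoracic and 195, 348 and 133 in the lumbar/sacral S2 sums. Its part in the regional values of Prkcd was not tested.

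Spp1 also had its highest shares in S2 of the libraries labelled thoracic. It was detected in 17.0%, 5.63% and 14.7% of nuclei in cervical replicates 1 to 3, in 34.8%, 29.1% and 19.2% in the thoracic replicates, and in 8.18%, 10.3% and 14.0% in the lumbar/sacral replicates. Every library labelled thoracic lay above every other library. With the labels of cervical and thoracic replicate 2 exchanged, 5.63% would be a thoracic and 29.1% a cervical value, and this order would not hold. The means were 12.4% ± 6.0, 27.7% ± 7.87 and 10.9% ± 2.97 (SD, n = 3), with an exact permutation p of 0.0286 over 1680 assignments. This call was lost with the replicate number as a block (exact permutation p = 0.0833) and after thinning (p = 0.0893 by the same exact test, means 7.79%, 15.7% and 10.1%), while it held without the libraries labelled cervical and thoracic replicate 2 (exact p = 0.019).

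Chodl varied widely between libraries of the same region. It was detected in 20.8%, 11.3% and 38.0% of cervical, 29.3%, 16.5% and 11.5% of thoracic and 10.1%, 8.62% and 33.1% of lumbar/sacral S2 nuclei in replicates 1 to 3. The regions overlapped, with means of 23.4% ± 13.6, 19.1% ± 9.20 and 17.3% ± 13.7 (SD, n = 3), and no difference was detected (exact permutation p = 0.764, and 0.552 without the libraries labelled cervical and thoracic replicate 2). The 2 highest libraries were those of the female pool from cervical and lumbar/sacral cord, whereas the thoracic library of the same pool, with 26 nuclei, was among the lowest.

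Mmp9 was too sparse to compare. Its shares were 1.52%, 0% and 3.07% in the cervical, 2.17%, 1.27% and 0% in the thoracic and 1.89%, 1.72% and 3.72% in the lumbar/sacral libraries (exact permutation p = 0.429, and 0.571 without the libraries labelled cervical and thoracic replicate 2). The values of 0 allow shares of up to 4.23% in cervical replicate 2 and 11.5% in thoracic replicate 3, which covers counting error only.

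**Figure D1:**
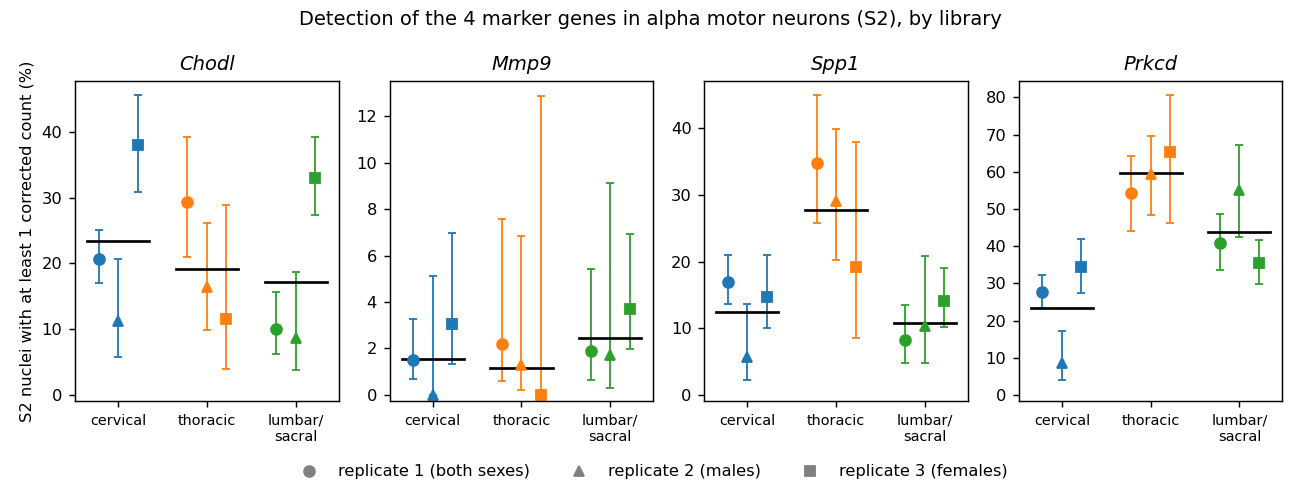
Share of S2 nuclei (%, y axis, own scale in each panel) with at least 1 corrected count of Chodl, Mmp9, Spp1 or Prkcd, by region (x axis). Each point is 1 library with its 95% Wilson interval (counting error only), the marker shape gives the pool, and black lines are means of 3 libraries. Prkcd lies between 54.3% and 65.4% in the libraries labelled thoracic and between 8.45% and 34.4% in those labelled cervical.

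In levels, no member passed the test over all genes. Prkcd stood at 53.0, 13.7 and 49.0 CPM in cervical, 84.9, 111 and 132 CPM in thoracic and 104, 129 and 78.7 CPM in lumbar/sacral replicates 1 to 3. The cervical level of Prkcd was below the thoracic one by a log2 difference of -1.54 ± 0.40 (SE; adjusted p = 0.542, limma with Benjamini-Hochberg adjustment), where the median of all genes was -0.27. Between lumbar/sacral and cervical libraries the log2 difference of Prkcd was 1.46 ± 0.40 (adjusted p = 0.576 by limma), with a median of 0.29 over all genes. Spp1 levels were 24.6, 7.85 and 15.1 CPM in cervical, 37.2, 37.1 and 26.4 CPM in thoracic and 18.4, 19.1 and 26.3 CPM in lumbar/sacral S2, and its cervical minus thoracic log2 difference was -0.96 ± 0.38 (SE). Without the libraries labelled cervical and thoracic replicate 2, the cervical minus thoracic log2 differences were -0.99 ± 0.29 for Prkcd, -0.58 ± 0.33 for Spp1 and 0.74 ± 0.63 for Chodl (0.50 ± 0.56 with them), and the lumbar/sacral minus cervical ones were 0.93 ± 0.27 for Prkcd, 0.093 ± 0.30 for Spp1 (0.40 ± 0.38 with them) and -0.38 ± 0.58 for Chodl (0.026 ± 0.56 with them), with all adjusted p of 0.771 or more (limma). Of the 10387 genes tested, limma called 0% in each of the 3 regional comparisons, with 150 genes at an unadjusted p under 0.05 between lumbar/sacral and thoracic, 882 between cervical and thoracic and 834 between lumbar/sacral and cervical libraries. Mmp9 was below the filter on low values. All other lists also had 0 called genes in these comparisons, among them the PKC family (8 of 9 tested), the MMP family with its inhibitors (9 of 20 tested) and the osteopontin receptors (6 of 10 tested). No astrocyte, endothelial or inhibitory neuron gene was above the filter, so these lists were not tested.

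Between the male and the female pool, S2 levels of the 3 tested members did not pass the test. In the libraries of males, Chodl was measured at 21.6 CPM in cervical, 21.2 CPM in thoracic and 28.6 CPM in lumbar/sacral cord. The corresponding libraries of females gave 86.4, 22.0 and 102 CPM. In cervical and lumbar/sacral cord the female value was the higher one by far, and in thoracic cord the values were close. The male cervical value comes from the library whose Hox genes go against its label and whose S2 nuclei were low in Tns1, Prph and Stk32a, and Malat1 was 10.6% to 12.4% of S2 counts in the male and 3.06% to 9.0% in the female pool. Their part in the difference was not tested. The log2 difference, with region as a term, was -1.17 ± 0.42 (SE) for male minus female (adjusted p = 0.496, limma). It was -0.20 ± 0.45 for Spp1 and -0.36 ± 0.38 for Prkcd. Limma called 3 of 9730 genes (0.0308%), and these 3 are sex-linked: Xist, the noncoding RNA of the inactive X, had a log2 difference of -7.11, and the Y-linked genes Eif2s3y and Uty had 4.53 and 4.65 (0.0206% of genes higher and 0.0103% lower in males). This count rests on single libraries and on the filter: it was 1 to 237 when a library was left out and 74 without the filter on low values. Sex and pool cannot be told apart, as each sex has 1 unmixed pool.

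Across the 21 cholinergic clusters, none of the 4 genes marked S2 alone. These are descriptions, since the clusters were made from the same counts. Prkcd was highest in S1, the Type 3 motor neurons, with 63.4% of 1528 nuclei and 135 ± 25.5 CPM (SD over 9 libraries), followed by S2 with 83.9 ± 39.7 CPM. S1 exceeded S2 in 8 of 9 libraries, by 51.1 ± 37.7 CPM. The next clusters, the interneurons I7 and I1, stood at 25.5 and 25.2 CPM, and S2 exceeded I7 by 67.9 ± 24.6 CPM in the 6 libraries that could be compared. In S3, the gamma motor neurons, Prkcd was detected in 3.30% of nuclei (median totals of corrected counts, which the normalization evens out, were 7323 in S3 and 7494 in S2).

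Chodl was shared with visceral motor neurons. The 2 highest clusters were V4, at 87.2 ± 31.5 CPM with 47.9% of nuclei, and V9, at 79.9 ± 13.2 CPM with 52.6% of nuclei, and S2 was the third at 43.3 ± 30.3 CPM. S2 and the next cluster, the interneurons I4, did not differ beyond their spread (7.55 ± 26.2 CPM, higher in S2 in 4 of 9 libraries). In the skeletal motor neuron clusters other than S2, Chodl was near its background, with 0.655% of S1 and 1.12% of S3 nuclei. On the log2(CPM + 5) scale S2 exceeded S1 by 2.86 ± 0.72 (SD) in 9 of 9 libraries.

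Spp1 had only 2 clusters above a low common level. The interneurons I8, with 19.5% of nuclei and 31.7 ± 26.9 CPM, and S2, with 16.2% and 23.6 ± 9.68 CPM, did not differ beyond their spread (6.18 ± 24.6 CPM over 8 libraries). Shares in all other clusters lay between 0.625% and 2.75%. S2 exceeded the third cluster, V6, in 8 of 8 libraries by 19.5 ± 11.6 CPM.

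Mmp9 was rare in every cluster. Its share was 2.10% in S2 and between 0.376% and 2.36% over all clusters, with the highest value in V8, so the share in S2 lay within the range of the other clusters. Among skeletal motor neurons it was above the 0.655% of S1 and the 0.536% of S3. The log2 difference was 0.31 ± 0.51 (SD) between S2 and S1, higher in S2 in 6 of 9 libraries, and 0.37 ± 0.37 between S2 and S3, higher in 7 and lower in 0 of 9.

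**Figure D2:**
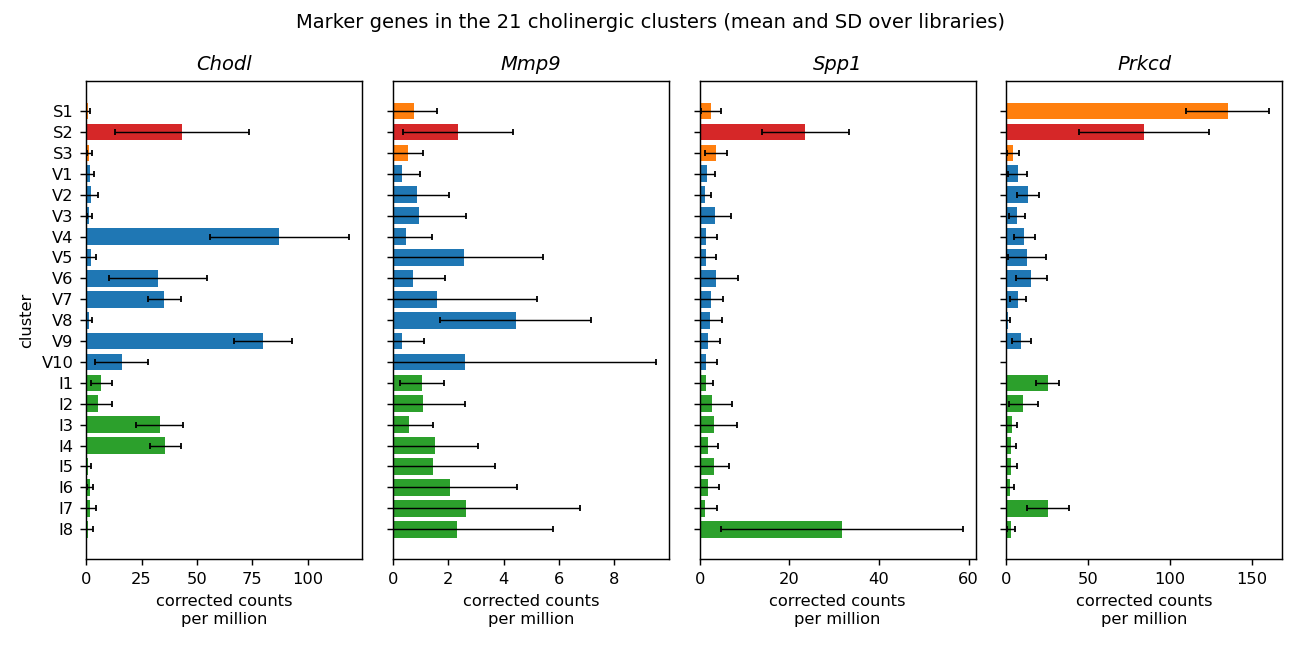
Level of each gene (CPM, x axis) by cluster (y axis), with bars for the mean over libraries and error bars for the SD (drawn down to 0 at most). Prkcd is highest in S1 and S2, Spp1 in I8 and S2, and Chodl in V4, V9 and S2.

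By Pearson r of mean log2(CPM + 5) over the 21 clusters, among 14465 genes, the genes most like Spp1 were 4930471E19Rik (0.932), Hhatl (0.928) and Gm17089 (0.901). Those most like Prkcd were AC154646.1 (0.900), Pcp4l1 (0.863) and L3mbtl4 (0.844), and those most like Chodl were 1190002N15Rik (0.786), Cln8 (0.754) and Gm29325 (0.706). Clusters come from the same libraries and these r values are descriptive. Mmp9 was too low to compare.

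Within S2, Chodl and Prkcd were largely found in different nuclei. Prkcd was detected in 15.5% of the 296 nuclei with Chodl and in 42.7% of those without it. Both were detected in 46 nuclei, where the product of the shares of each library sums to 106.7. The observed number was below the product in 8 of 9 libraries, the exception being the library labelled cervical replicate 2 with 1 nucleus, and below it in 8 of 8 without that library (45 against 106). At a threshold of 2 counts in both genes there was 1 nucleus against 13.3, and after thinning there were 21 against 54.0. In S1, where 10 nuclei held Chodl, 6 held both genes, against a product of 6.52. Co-detection is given as a description, with no test.

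The other pairs differed from the product by means of -0.13 to 0.95 percentage points, against -4.70 for Chodl and Prkcd. Chodl and Spp1 were found together in 57 nuclei against 50.3 by the product, and Spp1 and Prkcd in 86 against 82.1. Spp1 thus occurred on both sides, with 44 nuclei that held it with Chodl and neither of the others, and 74 that held it with Prkcd only. The pairs with Mmp9 rested on 27 nuclei in all: 10 with Chodl against 7.26, 12 with Prkcd against 10.0 and 2 with Spp1 against 4.35.

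**Figure D3:**
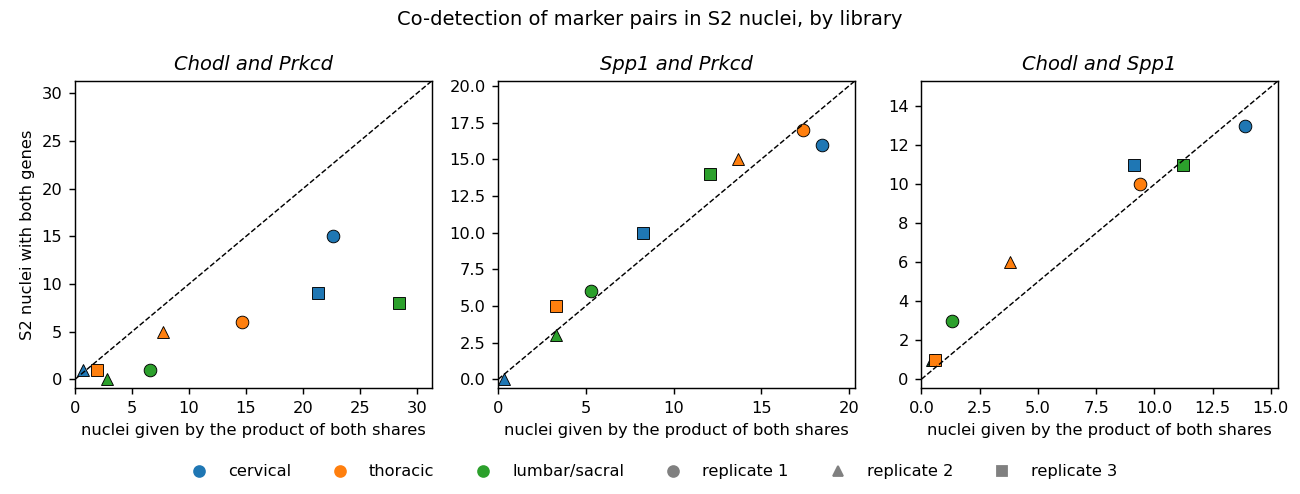
Number of S2 nuclei with both genes of a pair (y axis) against the number given by the product of both shares (x axis). Panels show Chodl and Prkcd, Spp1 and Prkcd, and Chodl and Spp1. Each of 9 libraries is 1 point, with color for the region and marker shape for the replicate. Both numbers are equal on the dashed line. For Chodl and Prkcd 8 of 9 libraries lie below the line, with a mean difference of -4.70 percentage points from the product. The means of the other pairs lie between -0.13 and 0.95 points, with 1 library at 6.66 for Spp1 and Prkcd. Pairs with Mmp9 are not drawn.

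Split by both genes, S2 held 250 nuclei with Chodl alone (19.5%), 422 with Prkcd alone (32.8%), 46 with both (3.58%) and 567 with neither (44.1%). The share with neither ranged from 22.8% in thoracic replicate 1 to 81.7% in the library labelled cervical replicate 2. A nucleus without a count can hold transcripts that were missed, and the median number of detected genes was 3247 in nuclei with neither gene, 3380 with Chodl alone, 3390 with Prkcd alone and 3600 with both.

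To ask what else differed between these nuclei, S2 nuclei with and without a gene were summed in each library with at least 10 nuclei on both sides and compared within libraries. For Chodl, 6 libraries (280 nuclei with, 850 without) were available and 501 of 10822 genes were called (4.63%), 244 higher (2.25%) and 257 lower (2.37%) in nuclei with Chodl. For Prkcd, 7 libraries (445 with, 743 without) were available and 478 of 11194 genes were called (4.27%), 210 higher (1.88%) and 268 lower (2.39%). For Spp1, 0 of 11045 genes were called (0%) in 6 libraries (193 with, 937 without), with 592 at an unadjusted p under 0.05. Mmp9 had no library with 10 positive nuclei. The normalization makes totals within a library nearly alike, so they do not show the original depth of the nuclei. The median number of detected genes was higher in nuclei with the gene than without in 4 of 6 libraries for Chodl, 7 of 7 for Prkcd and 4 of 6 for Spp1, and its part in the splits was not tested. The Chodl and Prkcd splits use the same nuclei, so their values are given side by side and are not independent of each other.

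The levels of the members in these splits restate their co-detection and are given as a description, with no test. Prkcd stood at 29.6, 17.3, 25.9, 39.4, 25.5 and 17.1 CPM in nuclei with Chodl and at 59.2, 68.6, 109, 126, 113 and 109 CPM in nuclei without (cervical replicates 1 and 3, thoracic 1 and 2, lumbar/sacral 1 and 3). The ranges did not overlap, with a log2 difference of -1.73. In the Prkcd split, Chodl was 0 to 21.1 CPM in nuclei with Prkcd and 36.5 to 148 CPM in those without, a log2 difference of -2.28, with the lower value in nuclei with Prkcd in 7 of 7 libraries. Spp1 had log2 differences of 0.45 with Chodl and 0.01 with Prkcd, and its ranges overlapped in both splits. In the Spp1 split the log2 difference of Chodl was 0.08 and that of Prkcd -0.15.

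Among the genes higher with Chodl, Kcnq5, a voltage-gated potassium channel subunit of the M-current, had the lowest adjusted p. It stood at 271, 439, 323, 205, 267 and 495 CPM in nuclei with Chodl and at 46.5, 86.2, 20.3, 6.37, 71.8 and 52.0 CPM in those without. The ranges did not overlap, and the log2 difference was 2.93 (adjusted p = 3.07e-06, limma). With Prkcd, Kcnq5 ranged from 0 to 80.3 CPM against 99.6 to 301 CPM without (log2 difference -2.82, adjusted p = 4.13e-08, limma). The other genes named for the Chodl split as higher were Mctp1 (1.31), Rspo2, a secreted activator of Wnt signaling (1.47), Megf11 (2.51) and Plxdc2 (1.57), with log2 differences of -1.01, -1.53, -1.93 and -1.54 in the Prkcd split. The genes named for the Prkcd split as lower were Cdh6, a cadherin (-1.64), Pitpnc1 (-1.10), Mctp1, Kcnq5 and Prkcb, and Cdh6 and Pitpnc1 had log2 differences of 1.46 and 1.07 in the Chodl split. All of these passed the test in both splits.

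Lower in nuclei with Chodl were Rora, a nuclear receptor (log2 difference -1.22), Sgcd, delta-sarcoglycan (-1.14), Htr1f, a serotonin receptor (-1.61), the Notch ligand Dner (-1.42) and the scaffold gene Frmpd4 (-1.09). The same genes had log2 differences of 0.79, 0.72, 0.87, 0.76 and 0.74 in the Prkcd split. Rora ranged from 2292 to 3872 CPM in nuclei with Chodl and from 6028 to 7816 CPM in nuclei without. The genes named for the Prkcd split as higher were Rreb1, a zinc-finger transcription factor (1.27), the atypical kinase Mapk4 (1.05), Crtac1 (1.03), Kcnn3 (1.01) and the long noncoding RNA Gm28175 (1.06), with log2 differences of -1.79, -1.27, -1.38, -1.58 and -1.39 in the Chodl split. All passed the test in both splits.

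Of the genes listed as markers of slow alpha motor neurons, 2 of 3 fell with Chodl (beside 2.37% of all genes) and 1 of 3 rose with Prkcd (beside 1.88%). Only Kcnn3 of these 3 was higher in S2 (147.6 CPM) than in S1 and S3 (66.1 and 38.4 CPM). Sv2a stood at 31.7 CPM in S2 against 66.2 and 70.5 CPM in S1 and S3, and Esrrb at 59.1 CPM against 181.8 and 213.5 CPM. Neither Sv2a nor Esrrb was thus particular to alpha motor neurons here. Kcnn3, the SK3 calcium-activated potassium channel of the afterhyperpolarization, ranged from 32.9 to 127 CPM with Chodl and from 127 to 270 CPM without (log2 difference -1.58, adjusted p = 2.59e-05, limma). Its log2 difference was 1.01 with Prkcd (adjusted p = 8.08e-05, limma), higher in 6 of 7 libraries. The exception was thoracic replicate 2 (112.4 against 116.2 CPM), and the ranges overlapped (112 to 319 CPM with Prkcd, 74.2 to 208 CPM without). Sv2a, a synaptic vesicle protein, fell with Chodl by 1.56 on the log2 scale (adjusted p = 0.00229, and 0.0578 without replicate 1, limma) and had a log2 difference of 0.29 with Prkcd (adjusted p = 0.528, limma). Esrrb, an estrogen-related nuclear receptor, did not pass in either, at -0.36 and 0.57 (adjusted p = 0.398 and 0.0568, limma). Neither of the 2 tested genes of 3 listed for fast alpha motor neurons passed (beside 4.63% of all genes with Chodl and 4.27% with Prkcd). The log2 differences of Kcng4, a modulatory potassium channel subunit, were -0.26 with Chodl and 0.43 with Prkcd. Those of the neuropeptide gene Calca were 0.37 and -0.68. Dlk1 was too low to test. The median log2 difference with Chodl was -1.56 over the 3 slow and 0.05 over the 2 tested fast genes, beside -0.03 over all genes tested. Medians of so few genes are descriptive.

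Markers that separate alpha, gamma and Type 3 motor neurons differed inside S2 as well. Of 4 alpha genes, 2 rose with Chodl (beside 2.25% of all genes) and fell with Prkcd (beside 2.39%). Rbfox3 (NeuN) had log2 differences of 0.66, higher in 5 of 6 libraries, and -0.85, lower in 7 of 7. Glis3 had 0.72, higher in 6 of 6 libraries, and -0.62, lower in 6 of 7. Without the filter on low values both genes missed the threshold in the Chodl split (adjusted p = 0.0527 and 0.0541, limma). Sv2b and Stk32a did not pass in either split. Both Type 3 genes, 2 of 2, fell with Chodl (beside 2.37% of all genes) and rose with Prkcd (beside 1.88%): Gpr149 had -1.56 and 0.94, and Rreb1 had -1.79 and 1.27. The gamma genes were divided. Esrrg fell with Chodl and rose with Prkcd (-0.90 and 0.54), Nrp2, a semaphorin co-receptor, did the opposite (1.87 and -2.04), Gfra1 rose with Prkcd by 0.24 (a call lost without replicate 1 or 3 and under 2 other settings) and had -0.24 with Chodl (adjusted p = 0.159, limma), and Plekhg1 did not pass (-1.10 and 0.79). Of 3 general skeletal motor neuron genes, Chat, Prph and Tns1, none passed in any split. Over all genes, 4.63% passed with Chodl, 0% with Spp1 and 4.27% with Prkcd. In pooled sums, Rreb1 stood at 10.98 CPM in nuclei with Chodl alone, 61.9 CPM in nuclei with neither gene, 154 CPM in nuclei with Prkcd alone and 244 CPM in S1. Gpr149 stood at 18.5, 73.3, 103 and 416 CPM in the same order, so nuclei with Prkcd alone lay nearer to S1 than those with Chodl alone. Rbfox3 took the reverse order, with 411, 278, 172 and 36.9 CPM. Kcnn3, at 39.9, 124, 220 and 62.3 CPM, did not follow the S1 value. Whether the S2 nuclei with Prkcd include Type 3 motor neurons was not tested.

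Several other PKC genes moved in the opposite direction to Prkcd. Of 9 listed genes 8 were tested, 3 were higher with Chodl (3 of 8, beside 2.25% of all genes) and 4 were lower with Prkcd (4 of 8, beside 2.39%). The conventional, calcium-dependent isoforms Prkca and Prkcb had log2 differences of 1.49 and 1.42 with Chodl and of -1.36 and -1.56 with Prkcd, and Prkch (eta) had 1.68 and -1.38. With Chodl, Prkcb was higher in 5 of 6 libraries, the exception being lumbar/sacral replicate 1 (38.2 against 57.2 CPM). Prkcb ranged from 37.2 to 66.4 CPM in nuclei with Prkcd and from 68.5 to 265 CPM in nuclei without, with no overlap. Prkce (epsilon) had 0.37 with Chodl (adjusted p = 0.15, limma) and was lower with Prkcd by a log2 difference of -0.75. The atypical Prkcz was near 0 in both splits (-0.03 and -0.02), Prkci and Prkd1 did not pass, and Prkcq was too low to test.

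In the families of the other 2 members, few genes were called. Among 20 matrix metalloproteinases and their inhibitors, Mmp16, a membrane-bound metalloproteinase, was called lower with Prkcd (log2 difference -0.64, adjusted p = 3.5e-04, limma), 1 of 10 tested (beside 2.39% of all genes), and 0 of 9 were called with Chodl (beside 4.63%). At these list sizes such counts cannot be told from the shares over all genes. Of the osteopontin receptors, 0 of 5 tested were called with Chodl, 0 of 6 with Spp1 and 0 of 6 with Prkcd. Over all genes the shares called were 4.63%, 0% and 4.27%, so these counts say nothing particular about the receptors. Markers of other cells were mostly at low levels in S2: the astrocyte list summed to 2.86 to 9.27 CPM, the endothelial list to 1.96 to 9.54 CPM, the inhibitory neuron list to 14.2 to 37.3 CPM, the excitatory neuron list to 0 to 20.6 CPM, the microglia list to 19.6 to 194 CPM and the oligodendrocyte list to 52.0 to 149 CPM. Of the oligodendrocyte list, Mbp, a myelin gene, was lower with Chodl (-0.78, adjusted p = 0.0042, limma) and higher with Prkcd (0.60, adjusted p = 0.00198, limma), while Mog and Mobp were near 0. Of the interneuron list, Mpped2 was called, lower with Prkcd (-1.17, adjusted p = 0.00238, limma). No tested visceral, microglia, excitatory, inhibitory or Hox gene was called in the 3 splits, but several of these lists were below the filter. No astrocyte or endothelial gene was tested in any split. No visceral or excitatory gene was tested with Chodl, and no inhibitory gene with Spp1 or Prkcd. For these lists the splits therefore give no answer. The part of these genes in the splits was not tested.

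Leaving out replicate 3, the female pool, lowered the number of genes called from 501 to 130 in the Chodl split (129 of the 130 among the 501) and from 478 to 199 in the Prkcd split (197 among the 478). In the Chodl split without it, Prkca, Prkcb, Prkch, Gpr149, Rbfox3, Glis3 and Mbp kept their direction but no longer passed, and in the Prkcd split the same held for Glis3, Gfra1, Prkch and Mbp. Without replicate 1, Sv2a and Mbp in the Chodl split and Mpped2 and Gfra1 in the Prkcd split no longer passed, and the Prkcd split had 235 calls.

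**Figure D4:**
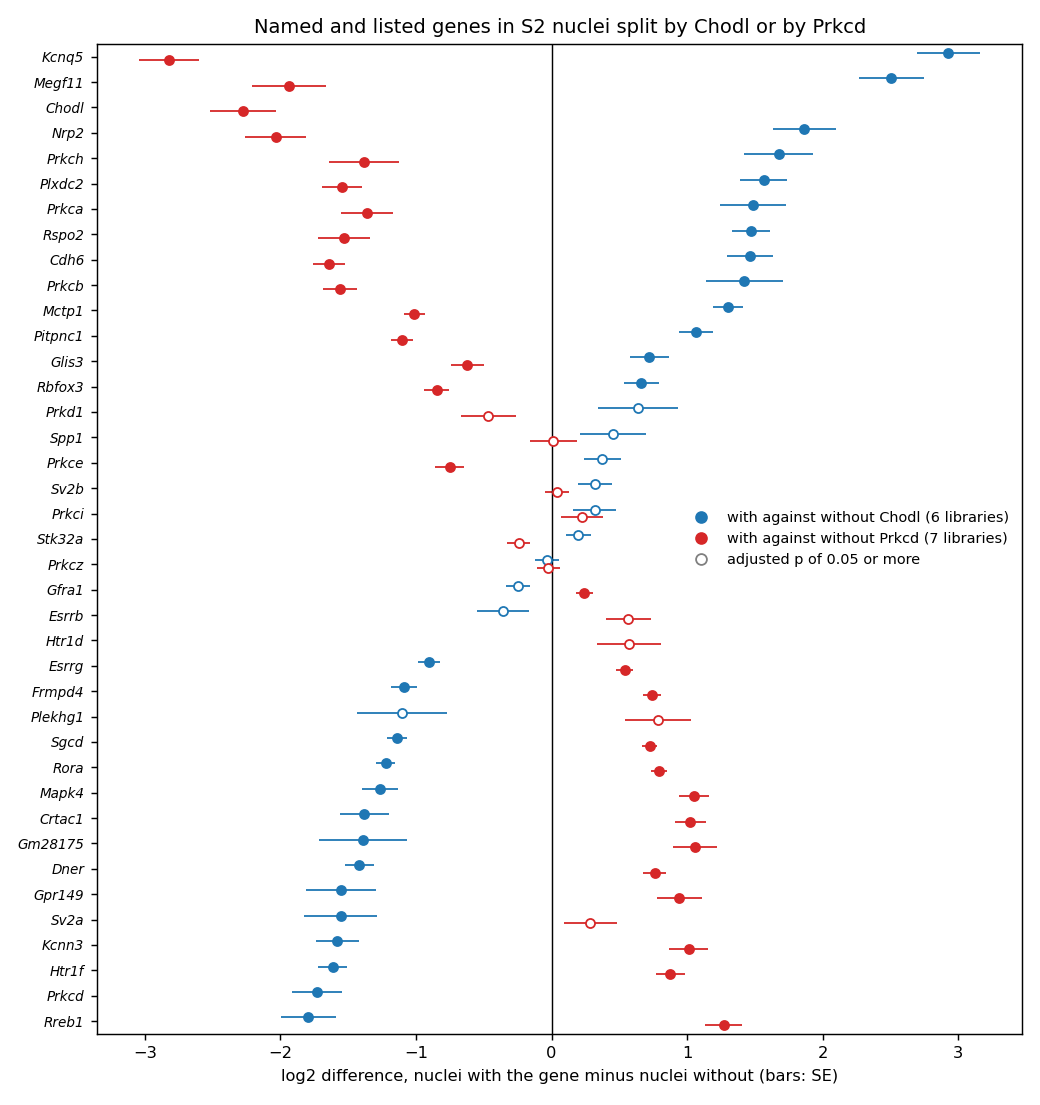
Log2 difference (x axis) between S2 nuclei with and without Chodl (6 libraries) and with and without Prkcd (7 libraries) for the genes labelled on the y axis, with SE bars, and open points for an adjusted p of 0.05 or more. Kcnq5, at 2.93 and -2.82, and Rreb1, at -1.79 and 1.27, lie at opposite ends, and the points of Chodl and Prkcd restate their co-detection.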

How the data were processed

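The 9 libraries were single-nucleus RNA sequencing libraries (10x Genomics) of sorted GFP+ nuclei. The authors aligned and counted reads with Cell Ranger 3.1.0 on mm10 and normalized and clustered in Seurat. The deposited matrix was found to hold depth-corrected whole-number values from SCTransform, treated here as a score and not as raw counts, because the totals of nuclei within a library varied little (CV 5.85% to 10.7%), and the planned count model was therefore replaced. Cell types were taken from the deposited annotation.

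Corrected counts were summed for each library and scaled to CPM. Sums of at least 10 nuclei were compared with limma 3.58.1 (R 4.3.3) with trend on log2(CPM + 5), for genes of at least 10 CPM in at least 3 sums, with Benjamini-Hochberg adjustment over all genes and a threshold of 0.05. Nuclei with and without a gene were compared with library as a block. Fold changes on the log2(CPM + 5) scale understate the change of low genes. Shares by region were compared by a two-sided exact permutation test. Wilson intervals at 95% and limits of 3 counts for a share of 0 cover counting error only. Nuclei were also thinned to 4600 counts, which left out 35 S2 nuclei, and Scrublet (scanpy 1.11.5) marked 164 doublets (1.02%), 24 of them in S2, which were left out in an alternative. Regional and split limma fits were also run on simulated counts that were drawn independently, without library or pool effects. Such counts cannot check the fits for corrected counts or for libraries that share mice.

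The members and gene lists were chosen with earlier results of these data known. The text names the members, the genes of the lists and, for each split, the 5 genes with the lowest adjusted p in each direction among those called with a log2 difference of at least 1, and the 3 genes most like each member over clusters. Libraries with the same replicate number came from the same mice and are paired. Their deviations from the region means had r of -0.08 to 0.70 over 9 pairs, against -0.52 to 0.26 over 18 pairs with different numbers. The main regional fit had no block. Libraries of a region are separate pools of mice, so p-values of the regional comparisons measure the spread between 3 pools. The libraries of the splits come from the same 3 pools and partly share mice. In the male against female fit, the libraries of a sex come from the same pool. The p-values of the splits and of that fit therefore measure the spread between libraries and not between independent pools. Some listed genes are not reported here.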

Additional observations from a re-analysis of the deposited data

Results flagged for a closer look

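Of 22 sets of 9 library values (differences of the members between S2 and other cells, and co-detection), 4 held a library far from the rest by Dixon's criterion, and chance flags about 1 in 20 sets. Prkcd in S2 exceeded its level in visceral motor neurons by 0.28 on the log2 scale in the library labelled cervical replicate 2, against 2.07 to 3.58 in the other 8 libraries, and its level in interneurons by 0.68, against 1.92 to 3.18. In the same library the S2 nuclei had 257 CPM of visceral markers, against 0 to 53.9 CPM elsewhere, and its part in these values was not tested. Mmp9 in lumbar/sacral replicate 3 exceeded its S3 level by 1.19 on the log2 scale, against 0 to 0.56 in the others, with at most 1 count in a nucleus. Spp1 and Prkcd were detected together in thoracic replicate 3 at 6.66 percentage points above the product of their shares, against -0.63 to 1.67 points elsewhere, in the library with the fewest S2 nuclei (26).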

How the results depend on the processing

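With the replicate number as a block, the regional p of the Spp1 share rose from 0.0286 to 0.0833 and that of Prkcd was 0.0278, the smallest the exact permutation test then allows, and the block gave 1 gene (Negr1) in place of 0 between cervical and thoracic S2 by limma; it changed no other regional call. The p of Spp1 was 0.0893 after thinning and 0.0667 to 0.2 when a replicate was left out. That of Prkcd was 0.0643 with at least 2 counts, 0.0667 without the male-pool cervical and thoracic libraries and 0.0667 to 0.133 without a replicate, by exact permutation tests that then cannot go below 0.0667 (0.00952 without the 2 male-pool libraries). With at least 2 counts, co-detection minus the product was -1.04 points for Chodl and Prkcd (-4.70 at 1 count) and turned to -0.11 for Chodl and Spp1 (0.95). Leaving out replicates gave 0 to 1 genes (Cpne4, without replicate 2) between cervical and thoracic S2, 1 to 237 between the male and female pools, 130 to 499 in the Chodl split, 0 to 6 in the Spp1 split and 199 to 622 in the Prkcd split. Without a filter on low values, 74 genes were called between the pools, 271 in the Chodl split and 265 in the Prkcd split. Median-of-ratios scaling gave 6 between the pools, and a filter of 10 counts in every sum gave 0 there and 3 in the Spp1 split. None of the 4 members was called in a regional or pool comparison, and several of their small differences changed sign. Chodl turned in lumbar/sacral minus cervical from 0.03 to -0.24 (median-of-ratios scaling), -0.13 to 0.28 (without a replicate, below 0 without replicate 2 or 3) and -0.38 (without the male-pool cervical library, with or without the thoracic one). Leaving out replicates moved Chodl from 0.53 to between -0.20 and 1.17 in lumbar/sacral minus thoracic and from 0.50 to between -0.12 and 0.89 in cervical minus thoracic, and Prkcd from -0.08 to between -0.25 and 0.24 in lumbar/sacral minus thoracic, with the turned value in each case without replicate 3. Male minus female ranged from -0.51 to 0.023 for Spp1 and from -0.88 to 0.22 for Prkcd, above 0 without cervical replicate 2 or 3. Spp1 in the Prkcd split (0.01) became -0.027 with median-of-ratios scaling, -0.029 without doublets and -0.081 to 0.21 without a replicate, below 0 without replicate 2 or 3. The named genes gave 46 called results in the splits, where a gene called in both splits counts once for each. They include Prkcd in the Chodl split and Chodl in the Prkcd split, which restate co-detection. Of 391 values for these results under other settings, 371 kept direction and call, 20 kept direction only and 0 reversed. A gene removed by a filter gave no value and was not counted as lost. Only 24 of the 46 had a value with the filter of 10 counts in every sum. The causes were not tested. The split by Mmp9 was not run, as no library had enough nuclei.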
